A study of Macaca mulatta with 43 samples.

Results

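Cohort 7a of a study of chronic alcohol consumption in rhesus macaques held 8 ethanol drinkers and 4 controls, which were chosen by the cohort and treatment that their array descriptions name and make up 12 of the 43 arrays of the study. All were adult male rhesus macaques (Macaca mulatta), of 5 to 11 years over the whole series. Drinkers were first trained to take ethanol by schedule-induced polydipsia and then had open access to 4% (w/v) ethanol for 22 h a day over 1 year. The labels call the controls water controls, and the study's methods state that controls received a maltose dextran solution matched in calories. RNA from Brodmann areas 24, 25 and 32 of the medial prefrontal cortex was pooled within each animal, so that an array gives a mixture of 3 areas and of all their cell types. Each animal was measured on 1 Affymetrix Rhesus Macaque Genome Array, which reads a transcript by sets of short probes (probesets) that mostly lie near its 3′ end. Values are log2 units from robust multi-array averaging (RMA), and a difference of 1 is a 2-fold change. The question here was how the 8 drinkers differed from the 4 controls of their own cohort, across which gene families, and how far probesets that lie along single control transcripts differed between the same arrays.

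The medial prefrontal cortex takes part in decision making and in the control of habitual behavior. Its excitatory pyramidal neurons release glutamate, its interneurons release GABA, and both kinds of receptor are affected by ethanol. Messenger RNA is converted to labelled RNA from its poly-A tail in this type of array, so RNA that is broken or incompletely copied gives less signal from probes far from the 3′ end. For that reason the array carries paired probesets at the 3′ end, the middle and the 5′ end of beta-actin (ACTB, a cytoskeletal protein), of GAPDH (a glycolytic enzyme) and of EEF1A1 (a translation elongation factor), and the signal of the 3′ probeset minus that of the 5′ probeset is a standard reading of that loss. The poly-A spikes are bacterial transcripts added to the RNA before labelling, and the hybridization spikes are labelled RNAs added before hybridization.

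Array medians over all 52865 probesets lay at 5.75 to 5.79 in controls and 5.77 to 5.83 in drinkers. The mean correlation of an array with the others of its group lay between 0.991 and 0.993, so no array stood apart by these measures. Processing batches were set by joining arrays whose batch-adjusted values in the study follow 1 straight line of the deposited values at each probeset. They divided the cohort unevenly. Batch A held controls 25 and 26 and drinker 29, batch B held control 27 and drinkers 30 and 31, and batch C held control 28 and drinker 35. Batches D and E held drinkers only, 32 to 34 and 36. Cortical markers were present in every array. SLC17A7, the vesicular glutamate transporter of excitatory neurons, lay at 8.34 to 8.86 in controls and 8.69 to 9.06 in drinkers. GFAP, an astrocyte filament, lay at 12.17 to 12.77 and 12.06 to 12.64, and MBP, a myelin protein, at 12.06 to 13.61 and 12.08 to 13.67, so these ranges of the 2 groups overlapped.

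The drinkers and controls differed over a large part of the array. Of 23815 probesets tested, 5101 (21.4%) had an adjusted p under 0.05 (limma, Benjamini-Hochberg), and these are the probesets described as called. Drinkers were higher at 1777 (7.46%) and lower at 3324 (14%), and 8440 probesets had an unadjusted p under 0.05. With a single probeset for each gene, 2769 of 13707 genes were called (20.2%), of which 1114 were higher (8.13%) and 1655 lower (12.1%). The split by direction moved with the scaling. Each array was centred on its own median over the 23815 tested probesets, which is what centring means throughout. That gave 4709 called probesets, of which 2631 were higher and 2078 lower (55.9% higher, against 34.8% as deposited). Over genes 1674 were higher (12.2%) and 962 lower (7.02%). Centring on the medians over all probesets, given above, was not done. The median difference as deposited was -0.07 over the tested probesets and -0.05 over all genes. Differences were mostly small, with a median size of 0.37 over the called genes and 32 genes past 2-fold, 26 of them higher and 6 lower in drinkers. At 1392 of the called genes no drinker lay within the range of the controls, 650 above and 742 below. The first principal component of the 12 arrays held 37% of the variance, and controls lay at -35.4 to -21.1 on it and drinkers at 2.07 to 31.1. The number of calls fell to 3315 probesets without control 27 and 3286 without control 28 (1754 and 1691 genes), and rose to 5585 without drinker 32 (2968 genes). With batch as a block, 3221 probesets were called, of which 2863 were also called without it. Over the 5101 called probesets, the differences with the block had a median of 1.04 times their former size and 100% kept their sign. The standard errors were 1.22 times as large. Drinkers of batches D and E, which hold no control, add nothing to the group difference in that fit. Over the 5101 called probesets, precision was thus lower with the block, while the differences did not shrink in the median. These ratios were not computed for the lost calls alone.

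The largest rises were in genes of unlike function. MAP6D1, a microtubule-stabilizing protein, lay at 8.46, 9.13, 8.77 and 8.74 in controls and at 10.58, 10.78 and 11.31 (lowest, median and highest) in drinkers. Every drinker lay above every control, and the difference was 2.08 ± 0.14 (SE), or 4.24-fold (adjusted p = 2.64e-06, limma). AP4S1, a subunit of the AP-4 adaptor complex that sorts cargo at the Golgi, lay at 5.59, 6.04, 5.92 and 5.75 in controls and at 7.31, 7.90 and 8.38 in drinkers (difference 2.03 ± 0.16, adjusted p = 4.84e-06). TSR2, which acts in ribosome assembly, lay at 4.83, 5.63, 5.41 and 4.86 against 6.80, 7.07 and 7.45, a difference of 1.91 ± 0.15. Both groups were again fully apart. LIMCH1, an actin-associated protein, rose by 1.64 ± 0.14 at the probeset that stands for it, from 4.71 to 5.24 in controls to 6.24 to 7.07 in drinkers, while its other 4 probesets differed by -0.16 to -0.04 and were not called. Genes whose symbols begin with LOC are left out of these rankings of rises and falls. The next were TNFRSF25 (1.59), a death receptor of T cells, and ABCA8 (1.51), a lipid transporter of the ABC family.

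GAD2, which makes GABA in interneurons, lay at 6.50, 7.14, 7.05 and 7.11 in controls and at 8.10, 8.46 and 8.85 in drinkers. The groups did not overlap, and the difference was 1.51 ± 0.15 (adjusted p = 3.04e-05). The other GAD2 probeset differed by 0.29 and was not called (adjusted p = 0.0977). GRIK2, a kainate-type glutamate receptor subunit, lay at 5.83, 6.90, 5.88 and 6.35 in controls and at 6.90, 7.62 and 8.29 in drinkers, so the lowest drinker lay next to control 26 (difference 1.40 ± 0.26, adjusted p = 0.00233), and its other probeset differed by 0.20 (adjusted p = 0.253). The remaining genes among the 12 largest rises were AKR1D1 (1.49), a steroid reductase, ACKR1 (1.47), a chemokine-binding receptor, PGAP1 (1.46), which remodels GPI anchors, and EXOC4 (1.41), a subunit of the exocyst complex that tethers secretory vesicles. For EXOC4 the other 2 probesets were also called higher, at 0.59 and 0.53. Across the 12 genes, 5 of the 15 other probesets were called higher.

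The largest falls were also in genes of unlike function. MS4A7, a membrane protein of macrophages, lay at 7.29, 7.03, 8.03 and 7.68 in controls and at 5.49, 6.01 and 6.91 in drinkers. All drinkers lay below all controls, and the difference was -1.39 ± 0.25 (adjusted p = 0.00169), although its other 2 probesets (0.03 and -0.38) were not called. P2RY12, a purinergic receptor that marks resting microglia, lay at 9.48, 9.61, 9.78 and 10.07 against 8.27, 8.79 and 9.26. Here the groups did not overlap, the difference was -0.97 ± 0.15 (adjusted p = 0.000664), and the other probeset was called lower too, at -0.65 (adjusted p = 0.00425). FGL2, a prothrombinase of immune cells, fell from 4.84 to 5.90 in controls to 3.84 to 4.70 in drinkers (difference -1.22 ± 0.19), with a second probeset lower at -0.41. HPGD, which breaks down prostaglandins, was lower by 1.01 ± 0.22 (difference -1.01), and 3 of its other 4 probesets were called lower, between -1.09 and -0.74.

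Of the other 8 of these 12 genes, CXADR, a cell adhesion protein of tight junctions, differed by -1.0 ± 0.18, and KLK8, a secreted serine protease, by -0.90. MRPL42, a protein of the mitochondrial ribosome, lay at 7.53, 7.72, 8.21 and 8.03 in controls and at 6.63, 7.06 and 7.31 in drinkers (difference -0.85 ± 0.13, adjusted p = 0.000843). RANBP3L, which takes part in nuclear export, differed by -0.94, HSPB3, a small heat shock protein, by -0.84, ITIH2, a carrier of hyaluronan, by -0.84, KANSL2, a subunit of a histone acetyltransferase complex, by -0.84 and SETD9, a predicted methyltransferase, by -0.83. Of the 12 other probesets of these genes and of the preceding 4, 5 were called lower.

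**Figure D1:**
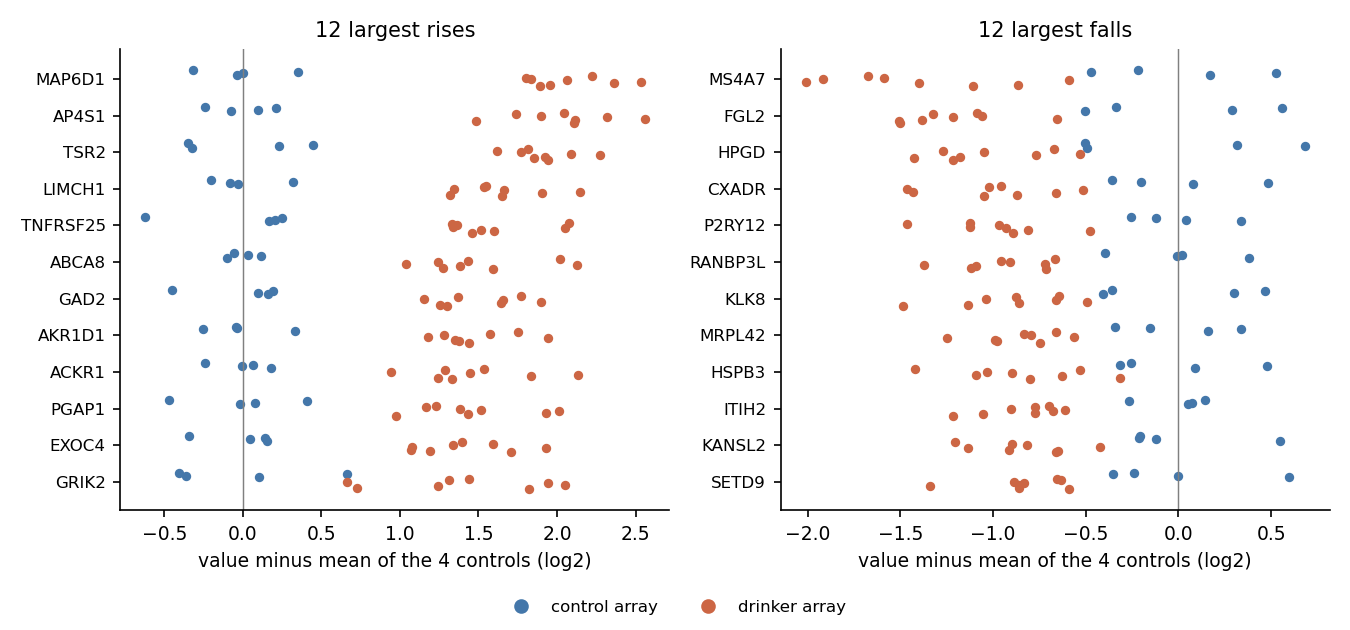
RMA values of the 12 genes with the largest rises (left) and the 12 with the largest falls (right) among called genes whose groups do not overlap, without symbols that begin with LOC. Each point is an array, the x axis is its value minus the mean of the 4 controls in log2 units, and colors mark the 4 controls and 8 drinkers. The drinkers of MAP6D1 and AP4S1 sit furthest above the controls, and in GRIK2 the lowest drinker meets the highest control at 6.90.

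Genes that encode the machinery of protein synthesis and of mitochondria were called lower at shares above the 12.1% of all genes. Ribosomal proteins of the cytosol, which build the ribosomes that translate nuclear messenger RNA, gave 15 lower and 2 higher of 39 genes tested (38.5% lower), with a median difference of -0.21 against -0.05 over all genes. RPS18, a protein of the small subunit, lay at 13.29, 13.31, 13.35 and 13.43 in controls and at 12.81, 12.90 and 12.98 in drinkers (difference -0.45 ± 0.07, adjusted p = 0.000597). RPS6, another small-subunit protein and a target of growth signaling, was lower at both of its probesets, by -0.35 and -0.36. The 2 groups were fully apart at RPS18 and at the RPS6 probeset with the higher level. The called falls of this family ran from -0.45 to -0.21. RPL5, a large-subunit protein that binds 5S ribosomal RNA, was higher by 0.46, at 4.72 to 5.00 in controls and 5.13 to 5.67 in drinkers. Its probeset has a low signal, with a mean of 5.21 in the lowest of the 5 bins of mean level (3.31 to 5.34). The median deviation of the family from each gene's mean over the 12 arrays lay at 0.08 to 0.21 in the 4 controls and at -0.09 to -0.02 in the 8 drinkers.

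Ribosomal proteins of the mitochondrion, which translate the proteins encoded by mitochondrial DNA, gave 28 lower and 1 higher of 62 (45.2% lower, median -0.23). MRPL16 lay at 8.49, 8.50, 8.64 and 8.55 in controls and at 7.62, 7.89 and 8.18 in drinkers, with no overlap (difference -0.68 ± 0.11, adjusted p = 0.000819). The gene called higher was MRPL49 (0.62, adjusted p = 0.0374), whose groups overlapped and which was no longer called with batch as a block (adjusted p = 0.267) or without control 26, control 27, drinker 29, drinker 32 or drinker 36 (adjusted p up to 0.121). Subunits of the respiratory chain and of ATP synthase, which turn the oxidation of nutrients into ATP, gave 21 lower and 2 higher of 58 (36.2% lower, median -0.17). ATP5G1, of the rotor of ATP synthase, lay at 11.35, 11.46, 11.53 and 11.78 against 10.69, 10.87 and 11.15 (difference -0.64 ± 0.10, adjusted p = 0.000648), while its other probeset differed by 0.13 (adjusted p = 0.244). NDUFA9, of complex I, was lower by -0.53 ± 0.08 with groups fully apart. Control probesets for mitochondrial transcripts are not part of these counts, and none had a lower mean in drinkers. MmuMitochon.4 was higher in drinkers by 0.61 with groups apart (exact permutation p = 0.00202, adjusted p = 0.0117 over 29 control levels). The others differed by 0.002 to 1.21, none with an adjusted p under 0.05, and control 26 was low at several of these probesets. MmuMitochon.10 lay at 14.44, 9.17, 14.48 and 14.52 in controls and at 14.27 to 14.48 in drinkers. MmuMitochon.3 lay at 14.44, 12.27, 14.28 and 14.39 against 14.14 to 14.38. The sign of the mean difference at both rests on control 26, so no direction is read from them. Carriers and import proteins of mitochondria gave 8 lower and 3 higher of 51 (median -0.08), led by TOMM70, a receptor of the outer membrane import complex, at -0.64 ± 0.10.

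The proteasome, endoplasmic reticulum and translation factor lists also had more genes called lower than higher, at shares above the 12.1% of all genes. Proteasome subunits, which degrade ubiquitin-tagged proteins, gave 9 lower and 0 higher of 32 (28.1% lower, median -0.13; 1 was higher at an unadjusted p under 0.05 in limma). PSMB8, the inducible subunit of the immunoproteasome, lay at 6.09, 6.03, 6.21 and 6.33 in controls and at 5.08, 5.43 and 5.63 in drinkers (difference -0.77 ± 0.11, adjusted p = 0.000333). PSMC6, an ATPase of the regulatory particle, differed by -0.58 with groups that overlapped. Genes of translocation into the endoplasmic reticulum and of transport to the Golgi gave 20 lower and 7 higher of 57 (35.1% lower, median -0.16). SPCS2, of the signal peptidase that trims secreted proteins, lay at 9.24, 9.30, 9.33 and 9.28 against 8.28, 8.53 and 8.88 (difference -0.76 ± 0.10), and SSR3, of the translocon, differed by -0.66 ± 0.13. The largest rise of this list, SEC14L5 (0.85), and 1 of its falls, SEC14L2, encode lipid-transfer proteins that entered the list by their symbol. Translation factors gave 12 lower and 4 higher of 43 (27.9% lower, median -0.14), with EIF3L, of the initiation complex eIF3, at -0.64 and EIF4E, which binds the messenger RNA cap, at 0.71. For EIF4E all drinkers (9.95 to 10.34) lay above all controls (9.30 to 9.53). Of the 12 falls of that list, EEF2KMT, EEF1AKMT2 and EEF1AKMT3 encode methyltransferases that act on elongation factors, and EEF2KMT (adjusted p = 0.0345) was no longer called with batch as a block (adjusted p = 0.178).

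The medians of these 7 families stayed below 0 with each array centred on its median, with values between -0.16 and -0.02, and with quantile normalization repeated over the 12 arrays. Centred, the calls of the 39 cytosolic ribosomal genes were 2 higher and 6 lower, those of the 62 mitochondrial ribosomal genes 4 and 18, those of the 58 respiratory genes 4 and 14, those of the mitochondrial carriers 3 and 7 and those of the proteasome 1 and 6. The endoplasmic reticulum list came to 8 higher and 12 lower, and the translation factors, with 5 higher and 4 lower, no longer had more falls than rises. Batches were uneven between the groups, and with batch as a block the number called fell from 17 to 9 for the cytosolic ribosomal genes, from 29 to 21 for the mitochondrial ribosomal genes, from 23 to 16 for the respiratory genes, from 11 to 9 for the carriers, from 9 to 5 for the proteasome, from 27 to 15 for the endoplasmic reticulum list and from 16 to 6 for the translation factors. The medians of these families with the block lay between -0.26 and -0.10. Leaving out control 27 gave 11 cytosolic ribosomal, 18 mitochondrial ribosomal, 14 endoplasmic reticulum, 5 proteasome and 4 translation factor calls, and leaving out control 28 gave 10 cytosolic ribosomal, 12 respiratory, 7 carrier, 13 endoplasmic reticulum and 6 translation factor calls. Without control 26 there were 10 translation factor calls.

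Other families were called higher at shares above the 8.13% of all genes. Enzymes that write, remove or read chromatin marks, with the remodeling complexes, gave 24 higher and 6 lower of 95 (25.3% higher, median 0.09). KDM5A, a demethylase of histone H3 lysine 4, lay at 8.90, 8.93, 8.66 and 8.41 in controls and at 9.19, 9.61 and 9.78 in drinkers, with groups apart (difference 0.81 ± 0.13, adjusted p = 0.000849), and a second of its 3 probesets was higher by 0.80. HDAC10, a deacetylase whose main substrate is a polyamine, lay at 6.48 to 6.65 against 7.08 to 7.60 (difference 0.73 ± 0.09), while its other probeset differed by -0.06 (adjusted p = 0.65). The largest fall of the list was that of SETD9, given above. Centred on the array medians this list had 27 higher and 5 lower, and with batch as a block 22 of its genes were called. Its called members numbered 24 to 32 over the 12 fits that left out an array.

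Sodium and calcium channels, which carry the inward currents of neurons, gave 7 higher and 0 lower of 26 (26.9% higher, median 0.03; 1 was lower at an unadjusted p under 0.05 in limma). CACNA1I, a T-type calcium channel, lay at 7.52, 7.91, 7.77 and 7.59 in controls and at 8.12, 8.26 and 8.34 in drinkers (difference 0.55 ± 0.08, adjusted p = 0.000573), and its other probeset differed by -0.17 (adjusted p = 0.282). The number called fell to 4 without control 26, drinker 29 or drinker 33, to 3 without drinker 35 or drinker 36, to 2 without control 27 or control 28 and to 3 with batch as a block. Ligands and receptors of axon guidance gave 9 higher and 1 lower of 61 (14.8% higher, median 0.08), with 6 in all without control 28 and 5 in all with batch as a block. EPHA6, an ephrin receptor, differed by 0.86 ± 0.17 with overlapping groups (4.46 to 4.94 in controls, 4.89 to 5.95 in drinkers), and SLIT3, a repellent ligand, by 0.51 at the probeset that stands for it and 0.44 at the other, both called. The gene called lower was NTN4, a netrin (-0.31, adjusted p = 0.032), which was no longer called with centring (adjusted p = 0.0998), with batch as a block (0.137) or without control 25, 27 or 28 or drinker 31 or 33 (up to 0.129). ABC transporters and flippases, which move lipids and other solutes across membranes, gave 9 higher and 0 lower of 43 (20.9% higher; 4 were lower at an unadjusted p under 0.05 in limma), led by ABCA8 and ABCD4 (0.62 ± 0.10), a lysosomal transporter of cobalamin. The median of that list was -0.06, with 25 of its 43 genes below 0, and changed sign with centring (0.01).

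Genes of neurotransmission were called in both directions. The share called either way was 23.1% for interneuron genes, 22.9% for synaptic vesicle genes, 20% for GABA receptors and 19.2% for potassium channels, near the 20.2% of all genes, and it was higher for the few glutamate receptors (4 of 10) and for G protein genes (33.3%). With batch as a block 1 gene each was called among the glutamate receptors, GABA receptors and interneuron genes, 5 among synaptic vesicle genes, 8 among potassium channels and 7 among G protein genes. Of 10 glutamate receptor genes, 3 were higher and 1 lower (median -0.06). GRIK1, a kainate receptor subunit like GRIK2, lay at 8.46, 8.83, 8.70 and 8.44 in controls and at 8.92, 9.08 and 9.63 in drinkers (difference 0.57 ± 0.13, adjusted p = 0.00814, and 0.0582 with batch as a block). GRM7, a presynaptic metabotropic receptor, differed by -0.56 with an adjusted p of 0.0473, which rose to up to 0.112 without any single control or without drinker 29, 30, 33 or 34, and to 0.156 with batch as a block. Of 10 GABA receptor genes 1 was higher and 1 lower, and GABRB1, a subunit of the GABA-A receptor, lay at 10.97 to 11.40 against 11.61 to 11.86 (difference 0.48 ± 0.08, adjusted p = 0.00143), with 2 further probesets at -0.13 and -0.01 that were not called. Among 13 genes of interneurons and GABA synthesis, GAD2 and LHX6, a transcription factor of interneurons from the medial ganglionic eminence, were higher (LHX6 by 0.38, adjusted p = 0.00704, and 0.0538 with batch as a block). The other LHX6 probeset differed by -0.16 and was not called. VIP, a neuropeptide of interneurons, was lower by 0.39 (difference -0.39, adjusted p = 0.0471), with an adjusted p of up to 0.12 without any control or without drinker 30, 31, 32, 35 or 36, and of 0.155 with batch as a block.

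Synaptic vesicle genes were called higher at 6 and lower at 5 of 48, with a median of 0.00. SV2A, a vesicle glycoprotein, lay at 11.24 to 11.68 in controls and 11.70 to 11.94 in drinkers (difference 0.39 ± 0.08), and VAMP8, an endosomal and secretory SNARE, differed by -0.55 with groups that overlapped. Without control 26 or control 28 the number called was 6. Potassium channels gave 9 higher and 5 lower of 73, led by KCNA3 (0.45) and KCNC1 (0.44), both voltage-gated, and 9 in all without control 25. Centred, synaptic vesicle genes had 8 higher and 2 lower and potassium channels 14 and 1. G protein subunits and regulators of G protein signaling gave 2 higher and 9 lower of 33 (27.3% lower), with GNA14 at -0.65 and GNB3 at 0.77, both with groups apart. That count was 6 without control 27 and 5 without control 28. CAMK2B, a subunit of the calcium and calmodulin kinase of the postsynaptic density, lay at 12.03, 11.92, 11.89 and 11.68 against 12.34, 12.44 and 12.58 (difference 0.57 ± 0.08, adjusted p = 0.000362), and 1 of its other 3 probesets was called, at 0.32.

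Among the immune genes that were called, more were lower than higher. Interferon-induced, MHC and innate sensing genes gave 12 lower and 2 higher of 51 (23.5% lower, median -0.21). Centred on the array medians, 3 were higher and 8 lower (median -0.14), and with batch as a block 9 were called. MAMU-DRA, the MHC class II alpha chain by which myeloid cells present antigen, lay at 7.75, 7.60, 7.70 and 8.21 in controls and at 6.93, 7.14 and 7.37 in drinkers. All 3 of its probesets were called lower, at -0.67, -0.63 and -0.93, and the groups did not overlap. IFIH1, a sensor of double-stranded RNA, lay at 6.04 to 6.80 against 5.37 to 5.95 (difference -0.71 ± 0.14, adjusted p = 0.00289). IRF8, a transcription factor of myeloid cells, moved the other way at the probeset that stands for it, from 8.43 to 9.12 in controls to 9.42 to 10.42 in drinkers (difference 1.03 ± 0.17, adjusted p = 0.00135), while its other 2 probesets differed by -0.11 and -0.14 and were not called. Cytokines, chemokines and the TNF family gave 16 lower and 4 higher of 132 (12.1% lower), a share equal to that of all genes. TNFRSF11B, a decoy receptor that limits osteoclast formation, was lower at both probesets, by -0.92 and -1.15, and IL10RB, a subunit of the interleukin 10 receptor, by -0.72.

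Microglia are the resident immune cells of the brain. Of 14 microglial markers 5 were lower (35.7%) and 1 higher, with a median of -0.21. Beside P2RY12, these were CX3CR1, the fractalkine receptor (5.05 to 5.46 in controls, 4.68 to 5.04 in drinkers, difference -0.44 ± 0.10, adjusted p = 0.00576), AIF1, a cytoskeletal protein (-0.54, adjusted p = 0.0293), TYROBP, a signaling adaptor (-0.47, adjusted p = 0.0258), and PTPRC, the CD45 phosphatase of leukocytes (-0.41, adjusted p = 0.0314). AIF1 was no longer called without any 1 of the 4 controls or drinker 29 (adjusted p up to 0.077), and TYROBP and PTPRC without control 27 or control 28 (up to 0.111 and 0.112; PTPRC also with batch as a block, 0.0614, and with centring, 0.0687), so that 3 markers were called without either of these controls. CD68, a lysosomal protein of phagocytes, was higher, at 10.66 to 11.08 in controls and 11.09 to 11.29 in drinkers (difference 0.32 ± 0.08, adjusted p = 0.0105, and 0.0597 within the batches that hold both groups), while its other probeset differed by -0.06. The other AIF1 probeset differed by -0.08 and was not called. PTPRC had another probeset called lower, at -0.29, and another at -0.01 that was not called. The summed level of the 14 markers lay at 12.18 to 12.49 in controls and 12.09 to 12.31 in drinkers, so these ranges overlapped. In pooled tissue fewer cells of a type and less RNA per cell cannot be told apart.

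Markers of other cell types gave few calls. Of 12 astrocyte markers FGFR3, a growth factor receptor, was higher (0.45 ± 0.10) and S100B, a calcium-binding protein, lower (-0.41, adjusted p = 0.0259, up to 0.0951 without control 26 or control 28, and 0.0833 with batch as a block). The other FGFR3 probeset differed by -0.12 and was not called. No marker of excitatory neurons (9 genes), oligodendrocytes and myelin (11), endothelium (13) or smooth muscle and pericytes (9) was called by limma, and 7 of these 42 genes had an unadjusted p under 0.05. Single calls were made among 9 pan-neuronal markers (THY1, a surface glycoprotein of neurons, 0.28, with an adjusted p of up to 0.0707 without control 26, 27 or 28), among 8 of oligodendrocyte precursors (PTPRZ1, a phosphatase, -0.43) and among 7 of blood cells (ALAS2, of heme synthesis, -0.31, up to 0.0563 without control 26 or 28, and 0.221 with batch as a block). The other PTPRZ1 probeset went the other way, at 0.78, and was not called (adjusted p = 0.109, limma). That of ALAS2 differed by -0.04 and was not called. Over the 9 markers of choroid plexus, ependyma and meninges 2 were lower, of which DCN, a matrix proteoglycan of the meninges, lay at 9.53, 9.63, 10.09 and 9.67 in controls and at 8.81, 9.23 and 9.42 in drinkers (difference -0.53 ± 0.13). Of its other 4 probesets 1 was called lower, at -0.41, and 1 higher, at 0.40. The summed level of these 9 markers was 10.84 to 11.14 in controls and 10.48 to 10.87 in drinkers. The part of any cell type in the differences was not tested.

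Genes of ethanol and aldehyde oxidation gave 3 lower and 1 higher of 20, a share of 20% called against 20.2% of all genes. The list includes dehydrogenases of other aldehydes than that of ethanol. ALDH7A1, a mitochondrial and cytosolic dehydrogenase of lysine breakdown, differed by -0.52 with groups that overlapped, and ALDH1B1, which oxidizes acetaldehyde in mitochondria, lay at 6.75 to 7.12 in controls and 6.38 to 6.66 in drinkers (difference -0.39 ± 0.09, adjusted p = 0.00509). ALDH8A1, which acts in tryptophan breakdown, was higher (0.77 ± 0.15), at 5.14 to 5.49 against 5.62 to 6.71. Of 18 cholesterol synthesis genes 3 were called (16.7%, against 20.2% of all genes), all regulators and none an enzyme of the pathway. SCAP (0.27) and SREBF2 (0.30), which drive sterol synthesis, were higher. INSIG2 (-0.41), which restrains it, was lower at both of its probesets. The list median was 0.05, and -0.04 with the mean of each gene's probesets. SREBF2 (adjusted p = 0.032) was no longer called with batch as a block (0.0621) or without any single control, drinker 30 or drinker 36 (up to 0.0973), and SCAP (adjusted p = 0.0092) had an adjusted p of 0.0517 within the batches that hold both groups. Immediate early genes (1 higher and 1 lower of 17), glucocorticoid targets (1 higher of 13), hypoxia genes (1 lower of 8) and glycolysis enzymes (1 lower of 15) gave 5 calls together, and the 13 clock genes gave 0, at an unadjusted p under 0.05 in limma as well.

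Splicing factors gave 13 higher and 11 lower of 89 (14.6% and 12.4%, against 8.13% and 12.1% of all genes). With each array centred they gave 20 higher and 7 lower, where all genes had 12.2% higher and 7.02% lower. SRSF11, a serine and arginine rich splicing factor, had the largest difference of the list, 1.81 ± 0.47, at 4.35, 5.55, 4.31 and 4.05 in controls and at 4.82, 6.69 and 7.60 in drinkers, so the groups overlapped, and its adjusted p of 0.0139 rose to 0.0533 without control 28. RBM33, an RNA-binding protein, lay at 6.88 to 7.44 against 8.27 to 8.55 (difference 1.18 ± 0.10, adjusted p = 9.15e-06), with 1 of its other 3 probesets called higher (0.57). RBM7, of the nuclear exosome targeting complex, fell by 0.60 (difference -0.60 ± 0.09). Zinc finger genes of the ZNF series gave 31 higher and 34 lower of 280 (11.1% and 12.1%), from ZNF652 (0.97) to ZNF446 (-0.80). Centred they gave 46 higher and 15 lower, and the calls in all were 35 without control 28 and 33 with batch as a block. Of all 48 gene lists, 37 had a median below 0 as deposited, and 20 had with each array centred on its median.

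Over all genes 8.13% were higher, 12.1% lower and 20.2% called, and the remaining families lay on both sides of these shares. Deubiquitinating enzymes were called at 25%, heat shock genes at 23.7%, Rab GTPases at 23.1% and ubiquitin-conjugating enzymes at 21.7%. Collagens, laminins and integrins were called at 19.1%, calcium genes at 18.5%, solute carriers at 17.1%, tubulins, kinesins and dyneins at 15.3% and cadherins at 10.3%. Heat shock proteins and chaperones gave 3 higher and 11 lower of 59, with HSPB3 and TCP1, a subunit of the chaperonin that folds actin and tubulin, lowest (TCP1 differed by -0.59 ± 0.12, from 11.97 to 12.23 in controls to 11.10 to 11.92 in drinkers). Ubiquitin-conjugating enzymes gave 1 higher and 4 lower of 23, with UBE2K at -0.75 (overlapping groups, adjusted p = 0.0778 with batch as a block), and deubiquitinating enzymes 7 higher and 5 lower of 48, with USP36, a nucleolar protease, at 0.64. Rab GTPases, which direct vesicle traffic, gave 2 higher and 7 lower of 39, with RAB5A lowest. Tubulins, kinesins and dyneins gave 3 higher and 6 lower of 59, from TUBD1, a tubulin of the centriole, at -0.76 to KIF7, a kinesin of the cilium, at 0.70. Calcium, cAMP and kinase C genes gave 5 higher and 5 lower of 54, cadherins 3 and 1 of 39, collagens, laminins and integrins 7 and 6 of 68, and solute carriers of the plasma membrane and vesicles 25 and 15 of 234. Called lower were 18.6% of heat shock genes, 17.9% of Rab GTPases and 17.4% of ubiquitin-conjugating enzymes. Called higher were 14.6% of deubiquitinating enzymes, 10.7% of solute carriers, 10.3% of collagens, laminins and integrins and 9.26% of calcium genes. The split of several of these lists turned with the scaling. With each array centred, heat shock genes had 9 higher and 6 lower, Rab GTPases 4 and 3 and tubulins, kinesins and dyneins 8 and 5, while solute carriers had 34 and 6, calcium genes 9 and 4 and collagens 10 and 5. With batch as a block 8 heat shock genes, 2 ubiquitin-conjugating enzymes, 2 cadherins and 20 solute carriers were called. Without control 27 the calls in all were 7 for heat shock, 7 for deubiquitinating, 4 for Rab, 5 for tubulin, 6 for calcium, 2 for cadherin, 6 for collagen and 18 for solute carrier genes, and without control 28 they were 5 for tubulin, 2 for cadherin and 21 for solute carrier genes.

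**Figure D2:**
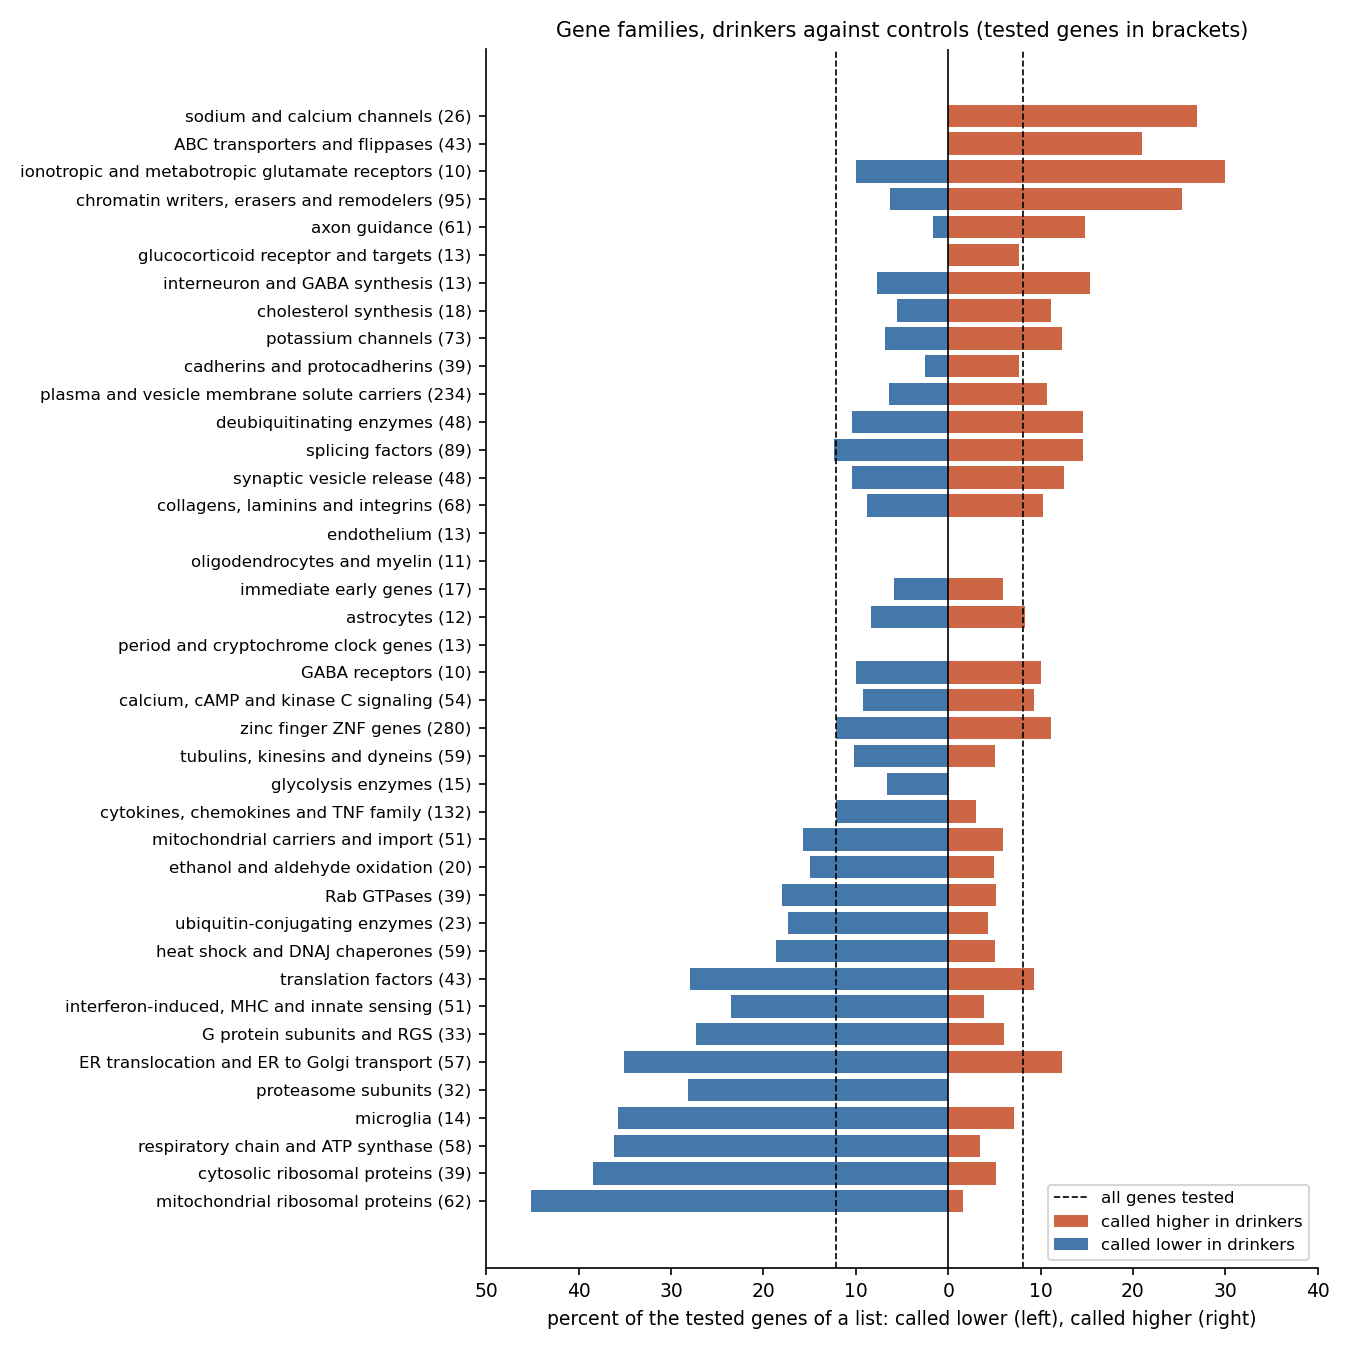
Percent of genes called higher and lower in drinkers in each gene list with at least 10 genes tested. Dashed lines mark the shares of all 13707 genes, 8.13% higher and 12.1% lower. The mitochondrial ribosomal (45.2%), cytosolic ribosomal (38.5%), respiratory (36.2%), microglial (35.7%) and endoplasmic reticulum (35.1%) lists extend furthest on the lower side, and the glutamate receptor (30%), sodium and calcium channel (26.9%) and chromatin (25.3%) lists on the higher side.

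The control probesets within single transcripts also differed between the groups. The 3′ minus 5′ value of beta-actin was 0.775, 0.867, 0.762 and 0.860 in the controls and 0.932, 1.31 and 1.60 (lowest, median and highest) in the drinkers. Every drinker lay above every control. The means were 0.816 ± 0.055 (SD, n = 4) and 1.26 ± 0.21 (SD, n = 8), and the difference of 0.448 had an exact two-sided permutation p of 0.00202, the smallest that the 495 arrangements of these arrays allow (adjusted p = 0.0808 over 60 control pairs, so that no pair could pass alone). The change came from both ends. The 3′ actin probeset was higher in drinkers by 0.21 and the 5′ probeset differed by -0.24. Against the 2 probesets at the middle of the transcript the differences were 0.110 (exact p = 0.121) and 0.201 (exact p = 0.0222).

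GAPDH gave 3′ minus 5′ values of 1.10, 1.15, 0.961 and 1.12 in controls and of 1.09, 1.26 and 1.51 in drinkers, so the groups overlapped. The means were 1.08 ± 0.083 (SD, n = 4) and 1.27 ± 0.13 (SD, n = 8; difference 0.183, exact permutation p = 0.0283, adjusted p = 0.140). That p was 0.0606 without control 25, 0.103 without control 27 and 0.0515 without drinker 29. A second 3′ probeset of GAPDH gave a 3′ minus 5′ difference of 0.217 (exact permutation p = 0.00606). The 4 values of GAPDH at 3′ minus middle differed by -0.033 (exact p = 0.58), 0.0916 (0.113), 0.00052 (0.994) and 0.125 (0.0343). EEF1A1 was at 1.02 ± 0.034 in controls (SD, n = 4) and 1.23 ± 0.13 in drinkers (SD, n = 8; difference 0.207, exact permutation p = 0.0141, adjusted p = 0.121). Its 3′ minus middle values differed by 0.383 (exact p = 0.00404) and 0.0640 (exact p = 0.204). Of the 12 pairs on the animals' own mRNA, 7 had an unadjusted exact p under 0.05, as had 6 of 24 pairs on the poly-A spikes, 3 of 15 on the hybridization spikes and 0 of 9 others. The differences of the poly-A spike pairs lay between -0.09 and 0.15 and those of the hybridization spike pairs between -0.17 and 0.14, smaller than that of actin. Those of the 9 others lay between -0.15 and 0.28. That range includes the 3′ minus 5′ differences of GAPDH (0.183) and EEF1A1 (0.207) and not that of actin.

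In each batch with both groups, drinkers had the higher actin value, by 0.510 in batch A, 0.495 in batch B and 0.191 in batch C. The same differences for GAPDH were 0.194, 0.300 and -0.031 and those for EEF1A1 0.236, 0.224 and 0.029, from 1 or 2 arrays a group. The mean level of the poly-A spikes was lower in drinkers, at 8.91 ± 0.18 (SD, n = 8) against 9.27 ± 0.14 in controls (SD, n = 4; difference -0.367, exact permutation p = 0.0101, adjusted p = 0.0293 over 29 control levels). Within batches A, B and C the difference in spike level was -0.376, -0.450 and -0.618. Drinker 33 had the highest actin value and, at 9.32, lay within the controls in spike level, apart from the other drinkers.

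**Figure D3:**
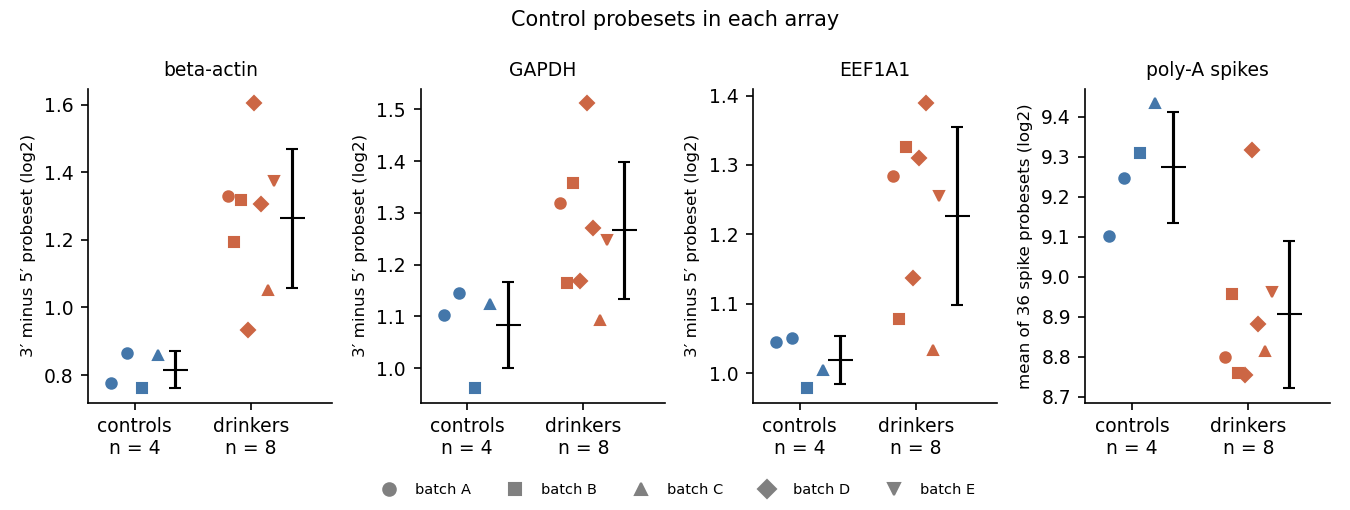
The 3′ minus 5′ values of beta-actin, GAPDH and EEF1A1 and the mean level of the 36 poly-A spike probesets, in log2 units, for each of the 12 arrays. Shapes are processing batches, and bars give the mean and SD of each group. All 8 drinkers lie above the 4 controls for beta-actin, and the groups overlap for GAPDH, EEF1A1 and the spike level.

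How far the group difference went with these values was described by adding each to the model. With the actin value as a covariate, 14 probesets were called (0.0588%), all higher in drinkers, and 2678 had an unadjusted p under 0.05 (limma). Over the 5101 probesets called without it, the fitted differences had a median of 0.706 times their former size, the standard errors 1.64 times, and 98.1% kept their sign. The covariate therefore acted on both the size and the precision of the differences, and since it separates the groups fully its part in the difference and that of drinking cannot be told apart in these 12 arrays. With the GAPDH value 667 probesets were called (367 higher and 300 lower), with EEF1A1 273 (166 and 107), with actin and GAPDH together 5, all higher, and with the poly-A spike level 2410 (891 and 1519). The median ratio of the differences was 0.826 with GAPDH, 0.871 with EEF1A1 and 1.14 with the spike level, and the standard errors were 1.27, 1.43 and 1.51 times as large.

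The 14 probesets called with the actin covariate, which are named because few remained, were probesets of ANKRD13A, MAP6D1, NOS1AP, AP4S1, LOC705091, ZNF518A, HERC4, TSR2, ZNF652, LIMCH1, RBM33, ZFYVE16, RNF40 and VTI1A. For 8 of them the probeset was the one with the highest mean of its gene, and those of ANKRD13A, ZNF518A, HERC4, ZFYVE16, RNF40 and VTI1A were not. With the covariate, MAP6D1 differed by 1.76 ± 0.22 (adjusted p = 0.00993, limma), AP4S1 by 1.69 ± 0.24, TSR2 by 1.77 ± 0.25 and ZNF652 by 0.83 ± 0.10. They encode proteins of unlike function, among them ubiquitin ligases (HERC4 and RNF40), membrane traffic proteins (AP4S1, VTI1A and ZFYVE16) and zinc finger proteins (ZNF518A and ZNF652). With actin and GAPDH together ANKRD13A (1.58), MAP6D1 (1.83), AP4S1 (1.82), ZNF652 (0.85) and VTI1A (1.26) were called.

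Of the 48 gene list medians, 37 lay below 0 without the covariate and 28 with it, and 17 moved by more than the spread between arrays of a group. With the actin covariate the median difference of the cytosolic ribosomal genes was -0.17 (-0.21 without it), of the mitochondrial ribosomal genes -0.15 (-0.23), of the respiratory genes -0.16 (-0.17), of the proteasome -0.09 (-0.13), of the interferon and MHC genes -0.22 (-0.21) and of the microglial markers -0.29 (-0.21). On the other side it was 0.11 for the chromatin genes (0.09), 0.14 for axon guidance (0.08) and 0.10 for sodium and calcium channels (0.03). The median of the translation factors was -0.07 (-0.14 without it), that of the oligodendrocyte markers -0.02 (-0.16), that of the endothelial markers -0.20 (-0.03) and that of the glutamate receptors 0.05 (-0.06). Among the members of the 48 lists, RBM33 of the splicing factors and ZNF652 of the zinc finger genes were called with the covariate.

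**Figure D4:**
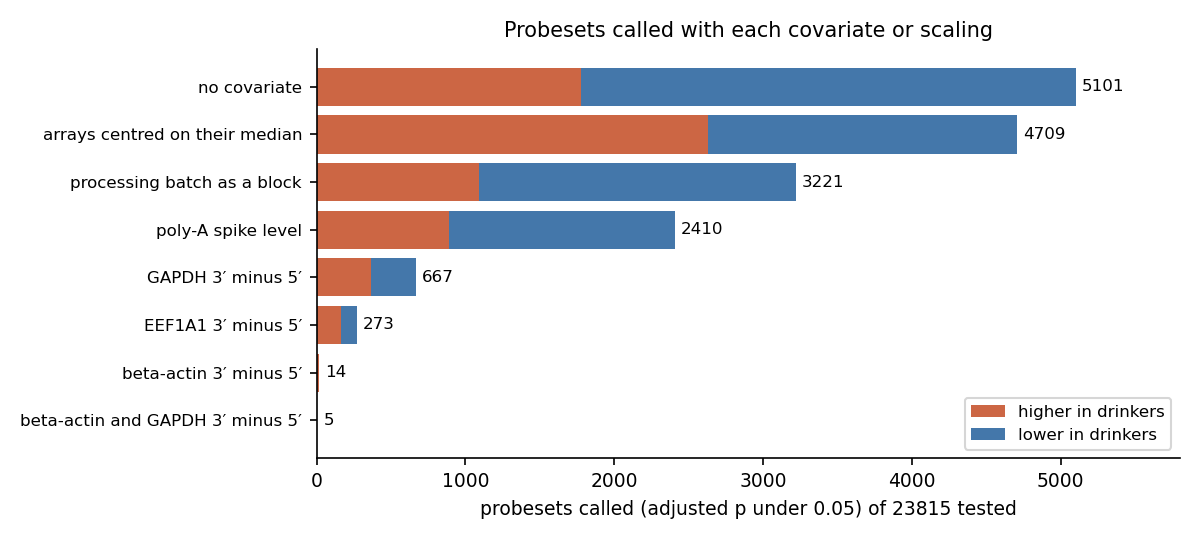
Probesets called higher and lower in drinkers, of 23815 tested, in the fit without a covariate and with each covariate, block or scaling. Bars are counts at an adjusted p under 0.05 and start at 0. The count falls from 5101 to 667 with the GAPDH value and to 14 with the actin value.

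The 8 drinkers alone varied in the actin value from 0.932 to 1.60, and a slope fitted over them uses no control array. No probeset was called for that slope (limma), and 2142 of 23815 (8.99%) had an unadjusted p under 0.05. Of the probesets called between the groups, 81.1% had a slope of the same sign as the group difference, which held for 75.5% of those higher and 84.1% of those lower in drinkers, against 59.7% of the probesets not called. Among the 916 called probesets with a slope p under 0.05, 901 had the same sign. Across probesets, which share the same arrays and are not independent, the correlation of slope and group difference was 0.48. The slope multiplied by the group difference in actin came to a median of 30.1% of the difference of the called probesets. Drinker 33 carried part of this pattern. Without it the share of the same sign was 69.9%, 2 probesets were called and 1279 had an unadjusted p under 0.05, and without any other drinker the share lay between 77.7% and 81.6%.

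Slopes on the GAPDH value gave the same sign at 81.1% of called probesets and those on EEF1A1 at 70.3%, and both gave 0 called probesets in limma (1626 and 947 at an unadjusted p under 0.05). The median share of the difference was 17.9% and 11.1%. Slopes on the poly-A spike level had the sign of the group difference at 79.7% of called probesets (0 called in limma, 1429 at an unadjusted p under 0.05). Since drinkers had the lower spike level, the product of slope and group difference ran against the group difference there, at a median of -24.4%. The first principal component of the 8 drinkers, 27.9% of their variance, had a Pearson r of 0.39 with the actin value (exact permutation p = 0.327; Spearman rho 0.07), and without the 2 drinkers farthest from the median in actin r was -0.32 (exact p = 0.519). Its r was 0.20 with GAPDH (exact p = 0.620), -0.05 with EEF1A1 (0.903) and 0.12 with the spike level (0.763), and the adjusted p over these 4 relations was 0.903 throughout.

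**Figure D5:**
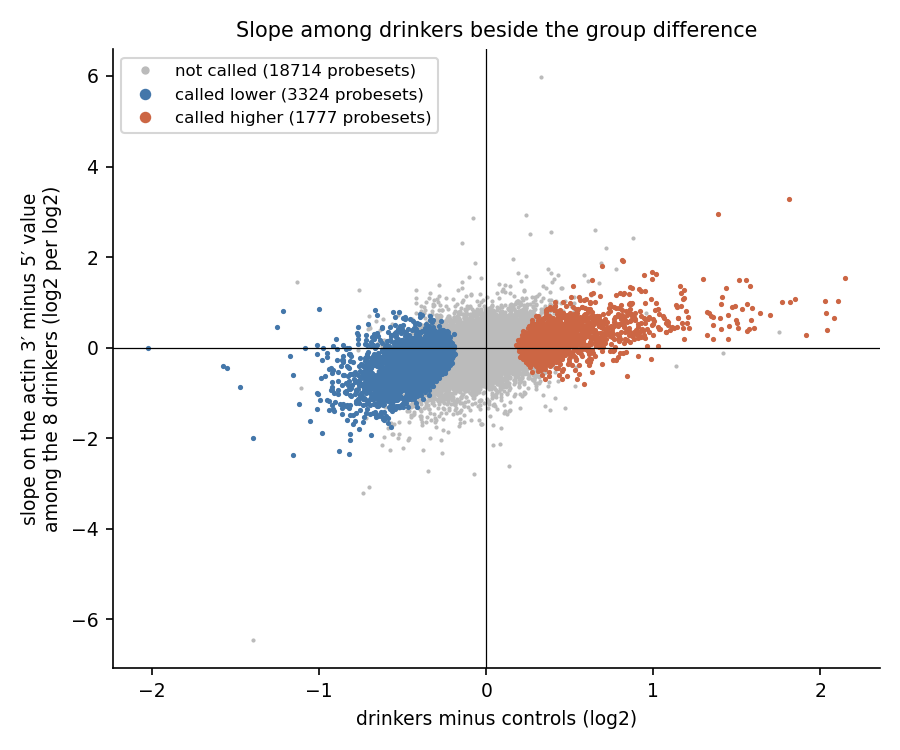
Difference between drinkers and controls (x axis, log2) and slope on the beta-actin 3′ minus 5′ value among the 8 drinkers (y axis, log2 per log2) for 23815 probesets. Blue points are the 3324 probesets called lower, red the 1777 called higher and grey those not called. Called probesets lie mostly in the lower left and upper right, 81.1% with a slope of the same sign as the difference.

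The share of genes called differed along other properties of the genes. Over 5 equal bins of the mean level, the share called higher was 1.24%, 3.32%, 9.30%, 13.2% and 13.6% from the lowest to the highest, and the share called lower 8.10%, 10.8%, 12.2%, 12.8% and 16.5%. Over 5 equal bins of the length of genomic sequence that a gene spans, known for 13521 of the 13707 genes, the share called higher was 3.55%, 6.36%, 8.32%, 9.62% and 13%, and the share called lower was 15.2%, 12.1%, 12.6%, 11.6% and 9.06%. The families lay at different places along this scale. The median span was 4.36 kb for the cytosolic ribosomal genes, 7.81 kb for the mitochondrial ribosomal genes and 9.56 kb for the respiratory genes, against 56.5 kb for the chromatin genes, 122 kb for the sodium and calcium channels and 25.3 kb for all genes. The part of gene span in the family counts was not tested. Of the 1315 probesets whose names begin with Mmu alone, 36% were called lower and 2.21% higher, whereas of the 18475 whose names begin with MmugDNA 13.1% were lower and 7.90% higher.

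Probesets of a single gene did not always move together. Of 6040 genes with at least 2 tested probesets, 850 had at least 2 called, and at 135 of these (15.9%) probesets were called in opposite directions. MON2, a regulator of endosome to Golgi traffic and chosen after its values were seen, was higher at a probeset by 1.85, from 5.03, 6.49, 5.58 and 5.95 in controls to 7.24, 7.51 and 8.19 in drinkers, and lower at another by 0.29 (difference -0.29). RAB5A, a GTPase of early endosomes, was lower by 0.58 ± 0.15 (difference -0.58) at the probeset with the higher level, with an adjusted p of 0.0151 that rose to 0.059 without control 27, and higher by 1.34 at the other. ZNF518A was higher by 1.56 at the probeset that was called with the actin covariate and lower by 0.29 at its other (difference -0.29). Of the 1254 other probesets of genes called higher, 246 were higher, 80 lower and 928 not called, whereas of the 1161 other probesets of genes called lower 475 were lower (40.9%), 39 higher and 647 not called. The other probesets thus were called in the gene's direction in 19.6% for genes called higher and 40.9% for genes called lower, beside 4.91% called higher and 14.5% called lower among the other probesets of genes not called.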

How the data were processed

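The deposited values are log2 expression values that the authors made with RMA in affy (versions not given in the sources used here), background corrected and quantile normalized over all 43 arrays before their batch adjustment. Of 52865 probesets, 158 are controls, 24969 pair with a single gene symbol in GEO's platform annotation, 361 with several and 27535 with none. Probesets with a symbol and not under 3.5 in at least 80% of the 12 arrays were tested with limma 3.58.1 in R 4.3.3, with treatment as the only factor, moderated standard errors and Benjamini-Hochberg adjustment over all 23815. The probeset with the highest mean stood for a gene. RMA values of different probesets were set against each other or combined in the control pairs, the summed or averaged levels, the bins of mean level and the choice of a gene's probeset. They were otherwise not compared. Array number limits the precision. Each array is a different animal.

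Control probesets were compared by exact two-sided permutation of the 12 arrays, with Python 3.11.15, numpy 2.4.6, scipy 1.17.1, pandas 2.3.3 and matplotlib 3.10.9. Processing batches were read from probesets on which the study's adjusted values are a fixed line of the deposited values. Gene spans came from RefSeq (T2T-MMU8v2.0). Named genes were the 12 largest rises and 12 largest falls among called genes with groups apart, without symbols that begin with LOC. In each list they were the called members with the largest differences. The cohort and the 48 gene lists were chosen with earlier results of these data known, so that their counts are descriptions. Alternatives were the low-value filter, threshold, variance model, array weights, scaling, covariates, batch block, mean of probesets and leaving out each array. RNA integrity numbers were not used here. The fits were tested on simulated data.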

Additional observations from a re-analysis of the deposited data

Results flagged for a closer look

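A single array lay far from the rest of its group (Dixon's ratio, critical value 0.829 for 4 arrays and 0.526 for 8) in 13 of 210 groups of values checked, where chance gives about 1 in 20. Among genes, control 25 was low for TNFRSF25 (6.55, nearest control 7.34) and for GAD2 (6.50, nearest 7.05) and high for THY1 (12.07, nearest 11.87), and control 28 was high for KANSL2 (8.13, nearest 7.47). Drinker 34 was low for SETD9 (4.70, nearest drinker 5.15), and drinker 32 was high for TUBD1 (6.22, nearest drinker 5.89) and for PTPRZ1 (9.34, nearest 8.996). Control 26 was high for EPHA6 (4.94, nearest 4.54) and for GRM7 (6.39, nearest 6.21). In the mean level of the poly-A spikes drinker 33 lay at 9.32, with the nearest drinker at 8.96. Control 26 was low at 3 control probesets for mitochondrial transcripts, which are not part of the gene counts, at 9.17 (nearest control 14.4) for MmuMitochon.10, 12.3 (nearest 14.3) for MmuMitochon.3 and 13.1 (nearest 14.5) for MmuMitochon.4.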

How the results depend on the processing

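Against 5101 probesets, 2769 genes and 135 genes with probesets called in opposite directions, an adjusted p of 0.01 or under gave 2165, 1110 and 32, the batch block 3221, 1702 and 58, and the batches with both groups 3618, 1812 and 70. The actin covariate gave 14, 8 and 0, GAPDH 667, 353 and 1, both 5, 3 and 0, EEF1A1 273, 136 and 0, and the poly-A spike level 2410, 1115 and 42. Including probesets without a symbol gave 9830 of 48353 (54.0% higher). Leaving out an array gave 3286 to 5585 probesets, 1691 to 2968 genes and 63 to 165 opposite genes, the lowest without control 28 and control 27. The other alternatives (no filter, a mean of at least 5, trended and robust variance, array weights, centring, repeated quantile normalization, mean of probesets) stayed within 1.5 times these counts. PDE1A, a phosphodiesterase, turned from -0.44 to 0.067 with the actin covariate and 0.037 with actin and GAPDH, and RAB5A from -0.58 to 0.019 with the actin covariate.

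The 3′ minus middle values in place of 3′ minus 5′ gave 0.110 and 0.201 for actin, -0.033 to 0.125 for GAPDH and 0.383 and 0.0640 for EEF1A1. Without single arrays the differences were 0.399 to 0.495 for actin and 0.142 to 0.208 for GAPDH, and in the batches with both groups GAPDH gave 0.150 (exact p = 0.143). The share of called probesets with a slope of the same sign was 70.3% on EEF1A1 and 69.9% to 81.6% without single drinkers, with 0 to 2 probesets called. Without the 2 drinkers farthest out, r of the first component was -0.32 with actin and 0.53 with EEF1A1. With batch as a block the number called moved by over 1.5 times, or from 0, in 24 of the 48 gene lists, and with centring in 11. The cause of these changes was not tested. No paired analysis was run, because the labels do not name pairs of drinkers and controls. The study states that controls were matched for age within cohorts and in calories to a drinker. Added after seeing the data were the EEF1A1 and spike covariates and regressors, the batches with both groups, gene span and the drinkers left out of slopes. Precision is limited by 4 controls.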
